A study of Mus musculus with 24 samples.

Results

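The mitosis and chromosome segregation genes are 45 genes whose products condense, hold, move and divide the chromosomes or switch mitosis on and off. They were chosen by name, and all 45 were found among the 27180 rows of the count tables, each as 1 row matched by its symbol or Entrez identifier. They were read in whole mouse skin from 24 RNA-seq libraries, in 8 groups of 3. The question the groups address is how skin that makes the E7 oncoprotein of human papillomavirus 16 differs from normal skin, before and after grafting, and with or without CD1d, the molecule that shows lipids to natural killer T cells.

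C57 ear was whole ear skin of C57BL/6 mice at 8 weeks, and E7 ear was the same tissue of 8-week-old K14E7 mice, in which the keratin 14 promoter drives E7 in the basal layer of the epidermis and in hair follicles. The other 6 groups were ear skin grafts from C57BL/6, K14E7 or CD1dKOxK14E7 donors, here C57, E7 and CD1dKOxE7 grafts, each taken at 14 or 28 days after grafting. All recipients were C57BL/6 mice, so that a graft can hold host cells, which carry normal Cd1d1. CD1dKOxE7 ear and CD1d-deficient skin without E7 were not among the groups analysed here. Replicates are numbered 1 to 3 in each group, for grafts as labelled and for ears in the order of their label numbers. The labels do not say whether the 3 libraries of a graft group came from separate animals, so the p-values measure the spread between these libraries, which may be technical. Ear libraries were sequenced on one flow cell and grafts on another, with CD1dKOxE7 grafts on a lane of their own. Tissue and flow cell, and CD1d status and lane, therefore cannot be told apart.

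As background, mitosis begins when Aurora and Polo-like kinases and the Cdc25 phosphatases release cyclin-dependent kinase 1. Condensin and topoisomerase II compact and untangle the chromosomes, the kinetochore couples each centromere to spindle microtubules, and the spindle checkpoint holds back the anaphase-promoting complex until every chromosome is attached. Cdc20 then switches that complex on, securin and cyclin B are destroyed, separase cuts cohesin, and the central spindle places the cleavage furrow. In normal skin dividing cells lie mainly in the basal layer and the hair matrix. Most of its genes are switched on together late in the cell cycle by FoxM1 and by B-Myb bound to the MuvB complex. E7 binds the retinoblastoma family of proteins, which restrain E2F and take part in keeping such genes off in resting cells.

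The promoters of Mki67 and Top2a, the members with the highest and the second highest mean CPM, are shown because they hold, before the start site, both kinds of letters through which these genes are known to be switched on together. The cell cycle homology region TTTGAA, which MuvB complexes bind, and CCAAT, which NF-Y binds, are in capitals on either strand (TTCAAA and ATTGG are their reverse complements). Each is the stretch of 250 bases before the RefSeq start on GRCm38.p6, on the minus strand, 5′ to 3′, at chr7:135716380-135716629 for Mki67 and chr11:99024190-99024439 for Top2a.
Mki67: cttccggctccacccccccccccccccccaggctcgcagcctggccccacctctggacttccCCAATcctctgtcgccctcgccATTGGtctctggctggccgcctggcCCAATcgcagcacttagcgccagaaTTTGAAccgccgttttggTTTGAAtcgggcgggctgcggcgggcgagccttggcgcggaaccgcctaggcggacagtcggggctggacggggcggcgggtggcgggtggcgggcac
Top2a: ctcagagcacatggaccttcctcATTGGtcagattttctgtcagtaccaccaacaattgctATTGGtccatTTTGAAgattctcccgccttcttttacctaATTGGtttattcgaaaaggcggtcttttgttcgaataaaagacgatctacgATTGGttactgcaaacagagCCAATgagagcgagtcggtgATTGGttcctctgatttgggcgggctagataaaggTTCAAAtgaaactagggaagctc
The Mki67 stretch holds TTTGAA at -116 and -98 and CCAAT or its complement at -188, -166 and -141, counted as the first base of the match before the start site. The Top2a stretch holds TTTGAA at -179 and its complement at -23, with 6 CCAAT matches between -227 and -58.

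RefSeq promoter windows, 250 bases before to 50 after a start, were at hand for 37 of the 45 members, in 40 windows. TTTGAA, on either strand, was in 30 of the 40 windows (75.0%), against 17.9% of the 32851 windows of 27025 genes. CCAAT was in 29 (72.5%), against 37.4% of all windows. TTTGAA with at least 2 CCAAT matches was in 16 windows of 14 members (40.0%), against 2.09% of all windows. The related hexamer TTTAAA was in 8 member windows (20.0%), against 13.2%. An E2F site, searched as TTTCGCGC, TTTGGCGC, TTTCCCGC or TTTGCCGC on either strand, was in 2 (5.0%), against 2.26%. None of these motifs overlapped another in the stretches shown. The windows of 6 members, Mad2l1, Mybl2, Ncaph, Nuf2, Nusap1 and Pttg1, held none of these letters. These matches describe the letters in the windows and are not binding data.

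Library totals were 6550011 to 13814448 counts, of which the members took 0.0873 to 0.452%. Levels are CPM, read counts scaled to TMM-adjusted library sizes, given in replicate order, and a log2 fold change is followed by its standard error (SE). A gene passed the test at an adjusted p below 0.05 (edgeR quasi-likelihood F test, Benjamini-Hochberg over all genes of a comparison), and rose or fell is written of such genes alone. The E7 transgene was at 17.6 to 57.2 CPM in the libraries labelled E7 or CD1dKOxE7 and at 0.135 CPM or less in C57 libraries. Cd1d1 was read in every library labelled CD1dKOxE7, at levels that overlapped E7 grafts at day 14 and lay below them at day 28. It had 13.6, 17.3 and 11.4 CPM in those of day 14 and 15.2, 14.3 and 16.8 CPM in E7 grafts of that day, and 5.33, 4.44 and 14.7 CPM at day 28 against 25.8, 21.4 and 23.1 CPM. The part of Cd1d1 that was deleted is not given in the labels, host cells carry the gene, and the directions below rest on the labels. Replicate 3 of the libraries labelled CD1dKOxE7 at day 28 stood apart from the others, with less E7 transgene (18.8 CPM against 44.1 and 44.4 CPM). Counts of members called that rest on it are also given without it, while counts of members whose libraries overlap or not are given only with it. As the tissue is whole skin, fewer cells of a type and less RNA per cell cannot be told apart.

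The summed level of the 45 genes gives the order of the groups. It was 839, 821 and 1108 CPM in C57 ear, the lowest group, and 4341, 4648 and 4621 CPM in E7 ear, the highest. C57 grafts had 2024, 1931 and 1798 CPM at day 14 and 1006, 1213 and 1170 CPM at day 28. E7 grafts had 3699, 3832 and 3470 CPM at day 14 and 2539, 2913 and 2722 CPM at day 28. Every E7 library was above every C57 library, in ear and grafts alike. C57 ear and C57 grafts at day 28 were neighbours whose ranges overlapped, with C57 ear replicate 3, the highest of its group, inside the range of the day 28 grafts. Libraries labelled CD1dKOxE7 had 2573, 2508 and 2856 CPM at day 14 and 3454, 3227 and 2469 CPM at day 28, and both ranges overlapped that of E7 grafts at day 28. Gene by gene, E7 ear had the highest mean of the 8 groups for 42 of the 45 members, the others being Bub1 and Bub1b, which were highest in E7 grafts at day 14, and Spc24, highest in the group labelled CD1dKOxE7 at day 28. C57 ear had the lowest mean for 42, the others being Pttg1, lowest in C57 grafts at day 14, and Espl1 and Kif20a, lowest in C57 grafts at day 28.

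**Figure D1:**
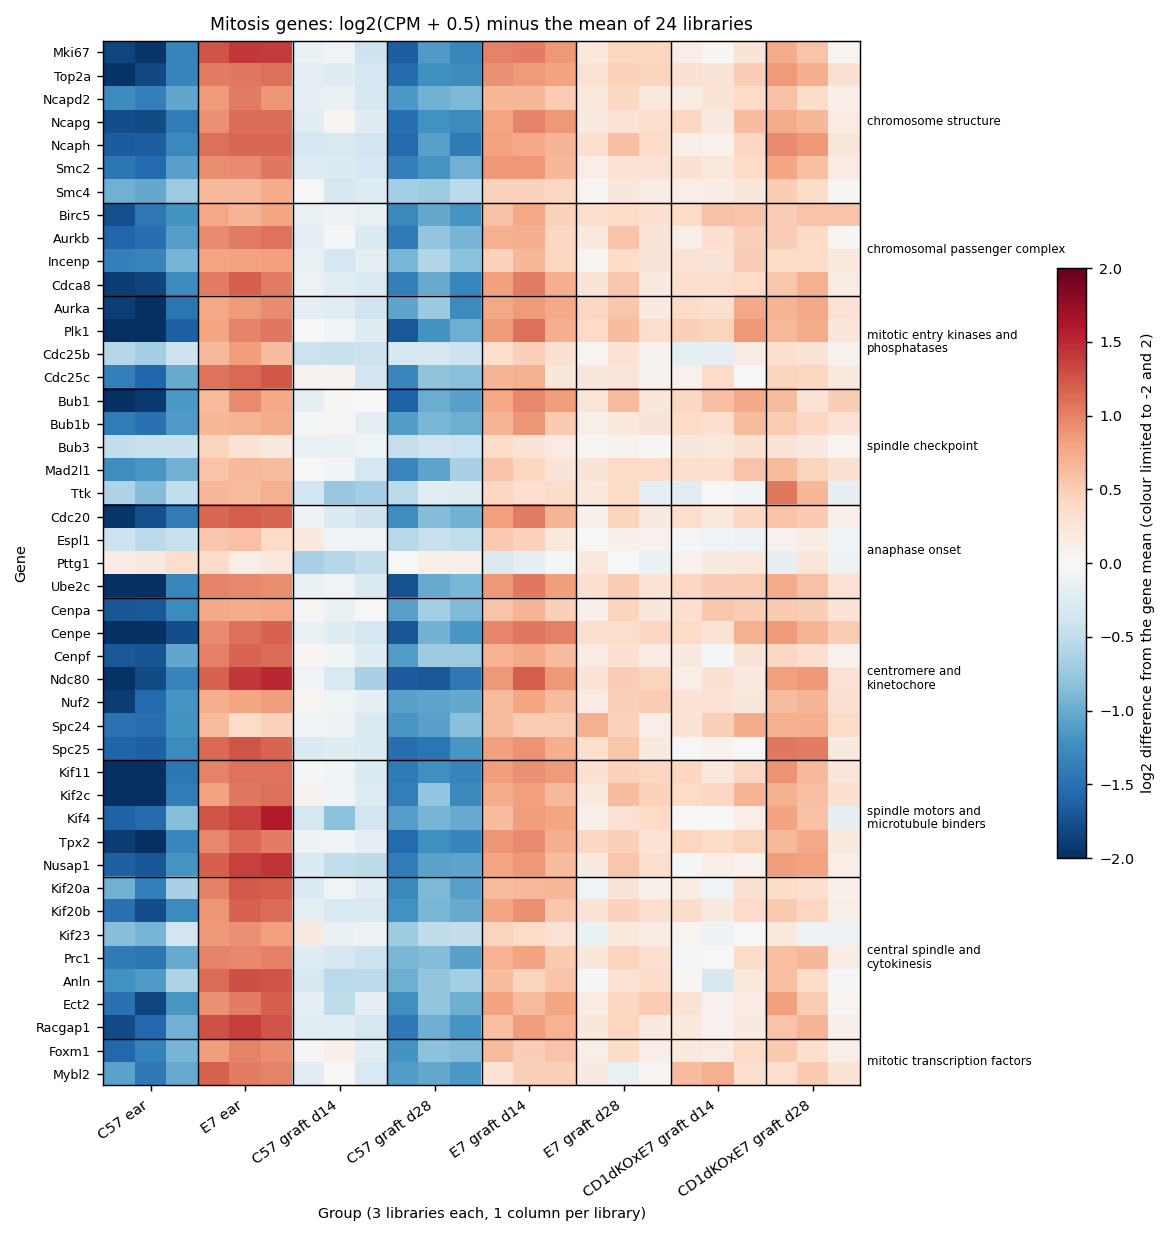
Level of the 45 mitosis genes in 24 libraries, as log2(CPM + 0.5) minus the mean of the gene over the libraries; rows are genes grouped by role, columns are libraries, 3 to a group, in replicate order. C57 ear and C57 day 28 grafts are blue and E7 ear is red in nearly every row, and Pttg1 is the row that departs from this order.

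E7 ear skin had far more of these transcripts than C57 ear skin. Of the 45 genes 44 rose, against 32.6% of all 15720 genes tested that rose, and their median log2 fold change was 2.57, where that of all genes was 0.0025. The changes ran from 0.77 for Bub3 to 3.21 for Cenpe among the 44 that rose. All 3 E7 ear libraries were above all 3 C57 ear libraries for the same 44 genes, as they were for 35.4% of all genes. Pttg1, securin, was the member that did not pass, with a log2 fold change of 0.01 ± 0.09 and an adjusted p of 0.938. Leaving out any 1 of the 6 libraries left 44 members called.

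In grafts the same comparison gave smaller values. At day 14 all 45 members rose in E7 over C57, against 15.8% of all 16189 genes. Their median log2 fold change was 0.99 (-0.04 for all genes), from 0.40 for Bub3 to 1.37 for Ndc80, and the largest adjusted p was 0.0162, for Kif23. At day 28, 43 members rose, against 20.7% of all genes, with a median of 1.44 (0.01 for all genes) and a top value of 2.13, again for Ndc80. Ttk (0.50 ± 0.23, adjusted p = 0.104) and Pttg1 (-0.04 ± 0.12, adjusted p = 0.834) did not pass. The libraries did not overlap for 45 members at day 14 and for 44 at day 28, all with E7 higher, which held for 22.1% and 27.6% of all genes. Leaving out 1 library left 42 to 44 members called at day 14, where Kif23, Cdc25c, Mad2l1 and Pttg1 were the members lost under one or more of these settings, and 43 at day 28.

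**Figure D2:**
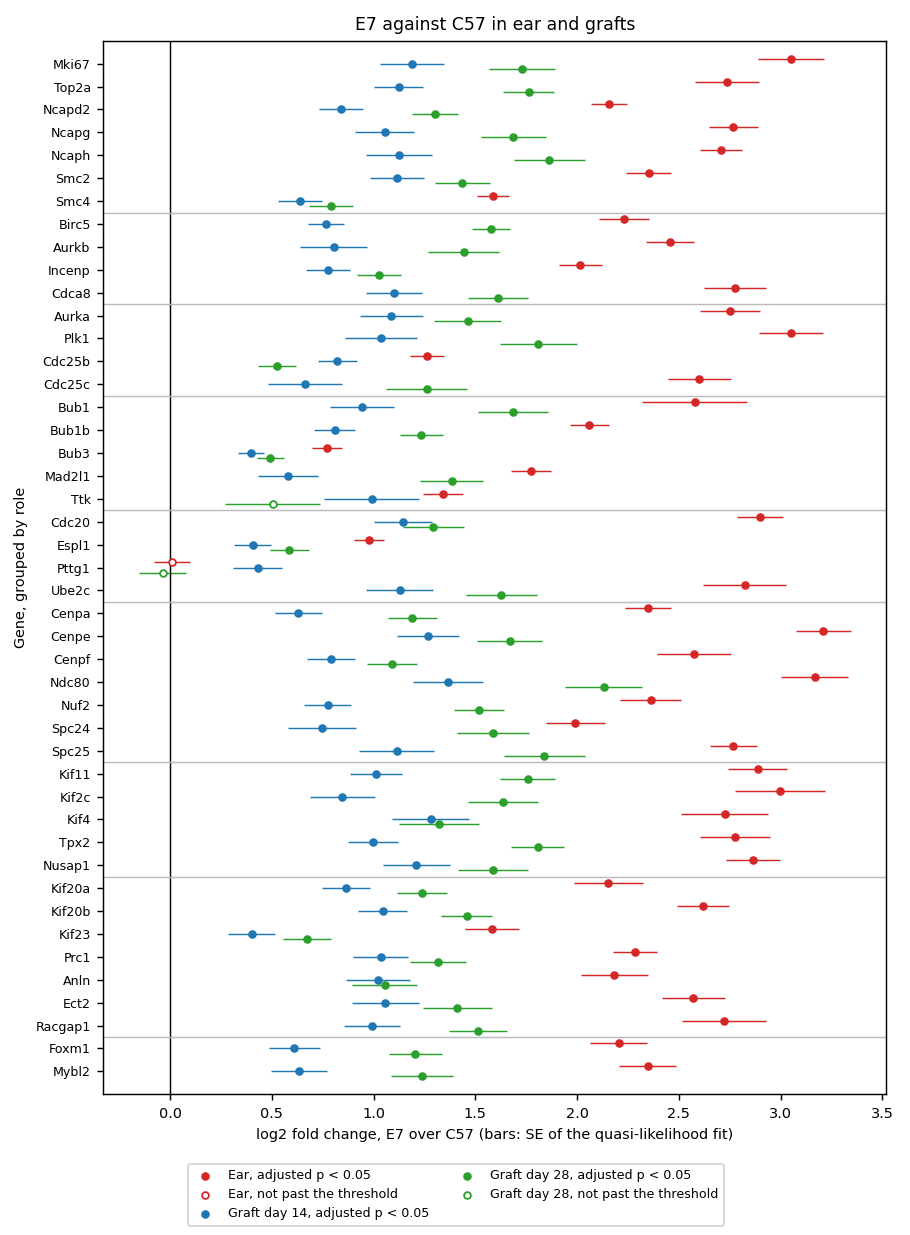
Log2 fold change of E7 over C57 for each of the 45 genes, grouped by role, in ear, day 14 grafts and day 28 grafts; bars are the SE of the fit, filled points passed the test and open points did not. The ear points lie farthest to the right for nearly all genes, with Bub3, Espl1, Pttg1, Ttk and Cdc25b the closest to 0.

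Among the genes of chromosome structure, Mki67 encodes Ki-67, which coats mitotic chromosomes and is the usual marker of dividing cells, and Top2a encodes the topoisomerase that untangles sister chromatids. Mki67 (chr7:135689784-135716361, minus strand, gene span in GENCODE M21 on GRCm38, as for the positions below) had 89.4, 83.0 and 127 CPM in C57 ear and 770.3, 859 and 849 CPM in E7 ear. At day 14 it had 293, 302 and 240.4 CPM in C57 and 643, 657 and 589 CPM in E7 grafts, and at day 28 102, 146 and 130.1 and 373, 432 and 433 CPM. No E7 library came near a C57 library of the same tissue and day. The log2 fold changes were 3.05 ± 0.16 in ear, 1.19 ± 0.16 at day 14 and 1.73 ± 0.16 at day 28. Per kilobase of exon, Mki67 was the most abundant of the 45 in E7 ear, at 82.1 ± 4.84 CPM per kilobase (mean ± SD, n = 3), ahead of Cdc20 at 55.9 ± 1.34. The least abundant there were Cdc25c at 4.49 ± 0.257 and Mad2l1 at 4.50 ± 0.138.

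Top2a (chr11:98992943-99024189) had 44.6, 49.9 and 69.0 CPM in C57 ear and 354, 362 and 375 CPM in E7 ear. In grafts of day 14 the values were 154, 148 and 139 CPM for C57 and 329.9, 317 and 304 CPM for E7, and at day 28 they were 59.9, 74.3 and 72.5 and 213, 241 and 238 CPM. The 3 comparisons gave 2.74 ± 0.16, 1.12 ± 0.12 and 1.76 ± 0.12 in log2. Ncaph, the kleisin that closes the condensin I ring, had 8.26, 8.33 and 10.8 CPM in C57 ear and 58.7, 61.0 and 60.4 CPM in E7 ear. At day 14 Ncaph had 21.4, 21.9 and 20.8 CPM in C57 and 47.9, 46.6 and 43.8 CPM in E7 grafts, and at day 28 8.87, 12.4 and 9.91 and 34.5, 41.6 and 35.5 CPM. Its change of 1.86 ± 0.17 at day 28 was the highest of this role, and its ear value was 2.71 ± 0.10. All 7 genes of the role, with the condensin I subunits Ncapd2 and Ncapg and the ATPase pair Smc2 and Smc4, rose in ear and at both days, with medians of 2.71, 1.12 and 1.69 and a largest adjusted p of 0.000563 at day 14. Smc4 had the smallest change of the role in all 3 comparisons (1.58 ± 0.08, 0.64 ± 0.11 and 0.79 ± 0.11).

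The chromosomal passenger complex corrects faulty attachments and then moves to the midzone. Its scaffold Incenp had 21.4, 22.2 and 29.2 CPM in C57 ear and 97.4, 99.0 and 99.4 CPM in E7 ear. Incenp grafts gave 50.6, 43.8 and 49.2 CPM (C57) and 77.8, 89.5 and 76.1 CPM (E7) at day 14, and 29.6, 37.5 and 31.6 and 58.0, 73.0 and 67.4 CPM at day 28. Here the groups stood apart by less than for the other 3 subunits in ear and at day 28, at 2.02 ± 0.10 and 1.03 ± 0.11 in log2, with 0.77 ± 0.11 at day 14. Borealin, encoded by Cdca8, had 9.32, 9.61 and 14.6 CPM in C57 ear and 74.0, 83.2 and 74.5 CPM in E7 ear. Its C57 grafts had 33.4, 31.0 and 29.4 CPM at day 14 and 13.6, 17.6 and 14.4 CPM at day 28. E7 grafts had 64.1, 74.8 and 60.1 CPM and then 43.3, 52.7 and 41.4 CPM. With 2.78 ± 0.15, 1.10 ± 0.14 and 1.61 ± 0.15, Cdca8 had the largest change of the complex each time. The kinase Aurkb and survivin, Birc5, rose in all 3 comparisons too. Birc5 had 11.8, 14.3 and 12.8 CPM in C57 and 37.9, 39.2 and 37.4 CPM in E7 grafts at day 28.

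Of the kinases and phosphatases of mitotic entry, Plk1 encodes Polo-like kinase 1 and Cdc25b the phosphatase that starts Cdk1 activation. Plk1 had 4.58, 5.03 and 7.51 CPM in C57 ear and 42.7, 49.2 and 51.5 CPM in E7 ear. In grafts Plk1 had 24.6, 23.2 and 20.5 CPM (C57) and 44.8, 53.3 and 40.9 CPM (E7) at day 14, and 7.25, 10.4 and 12.1 and 32.5, 37.8 and 31.4 CPM at day 28. E7 grafts at day 14 overlapped E7 ear, while C57 grafts of that day were all above C57 ear. The log2 fold changes were 3.05 ± 0.16, 1.04 ± 0.18 and 1.81 ± 0.19. Cdc25b already had 62.9, 58.3 and 70.6 CPM in C57 ear, and 148, 167 and 145 CPM in E7 ear. C57 grafts had 69.9, 68.9 and 69.5 CPM at day 14 and 73.7, 74.0 and 70.2 CPM at day 28, and E7 grafts had 117, 131 and 117 and 98.1, 114 and 98.4 CPM. Its changes, 1.26 ± 0.08, 0.82 ± 0.09 and 0.52 ± 0.09, were lower than those of Plk1 each time, and at day 28 Cdc25b had the smallest change of the 43 members that rose save Bub3. Aurka, which matures the spindle poles, and Cdc25c rose in all 3 as well. Cdc25c had the smallest change of this role at day 14 (0.66 ± 0.18).

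The 5 spindle checkpoint genes spread from a log2 fold change of 0.77 ± 0.08 to 2.58 ± 0.26 in ear. Bub3, which carries Bub1 and BubR1 to kinetochores, had 47.0, 48.9 and 48.6 CPM in C57 ear and 90.6, 80.4 and 75.6 CPM in E7 ear. Grafts at day 14 had 60.3, 61.0 and 62.8 CPM (C57) and 85.8, 79.9 and 74.7 CPM (E7), and those at day 28 48.5, 50.5 and 49.1 and 68.8, 69.6 and 67.6 CPM. The groups did not overlap, and yet the log2 fold changes of 0.77 ± 0.08, 0.40 ± 0.06 and 0.49 ± 0.07 were the smallest of the checkpoint. Bub1b, which encodes the checkpoint effector BubR1, had 15.9, 14.9 and 19.3 CPM in C57 ear and 68.1, 69.5 and 71.9 CPM in E7 ear. In grafts it had 41.8, 42.1 and 37.5 and 69.0, 79.3 and 62.2 CPM at day 14 (C57, E7) and 19.6, 22.7 and 21.5 and 46.8, 49.8 and 51.4 CPM at day 28. Its changes were 2.06 ± 0.10, 0.81 ± 0.10 and 1.23 ± 0.11. Ttk, the Mps1 kinase at the head of the checkpoint, was the member that passed in ear (1.34 ± 0.10) and at day 14 (0.99 ± 0.24) but not at day 28. It had 21.1, 26.6 and 26.1 CPM in C57 and 35.9, 39.9 and 27.4 CPM in E7 grafts at day 28, where E7 replicate 3 was just above the highest C57 library. Ttk passed at day 28 when only the libraries of that comparison were fitted. Bub1, the kinase that marks the centromere, and Mad2l1, the Cdc20 inhibitor, rose in all 3.

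The 4 genes of anaphase onset held both strong and weak changes. Cdc20, the activator of the anaphase-promoting complex, had 11.5, 13.2 and 17.1 CPM in C57 ear and 102, 107 and 104 CPM in E7 ear. Its grafts had 42.6, 37.2 and 34.4 CPM (C57) and 81.7, 95.0 and 73.4 CPM (E7) at day 14, and 19.2, 25.1 and 23.6 and 49.0, 62.7 and 51.8 CPM at day 28. The changes were 2.90 ± 0.12, 1.14 ± 0.14 and 1.29 ± 0.15. Separase, encoded by Espl1, had 37.0, 34.2 and 36.4 CPM in C57 ear and 72.2, 74.4 and 65.1 CPM in E7 ear. Espl1 had 56.9, 46.6 and 47.1 and 71.9, 68.3 and 57.7 CPM at day 14 (C57, E7), and 33.6, 36.2 and 35.04 and 49.7, 53.1 and 52.6 CPM at day 28. It rose by less than Cdc20 did, at 0.98 ± 0.07, 0.41 ± 0.09 and 0.59 ± 0.09. Ube2c, the ubiquitin-conjugating enzyme of the complex, rose in all 3.

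Pttg1 (chr11:43420250-43426251), which encodes securin, the inhibitor of separase, did not follow the other members. It had 31.9, 32.4 and 36.2 CPM in C57 ear and 37.1, 31.2 and 32.8 CPM in E7 ear, 2 overlapping ranges. C57 grafts had 17.8, 19.0 and 20.3 CPM at day 14 and 28.3, 30.8 and 31.3 CPM at day 28. E7 grafts had 23.2, 24.9 and 28.04 CPM and then 32.5, 28.6 and 25.8 CPM. Its one difference from C57 that passed was at day 14 (0.43 ± 0.12, adjusted p = 0.0147), where the C57 grafts were at their lowest. That call was lost without C57 replicate 1 or without E7 replicate 3. It was also the member that rose from day 14 to day 28 in C57 grafts (0.67 ± 0.12) and the one that fell from C57 ear to C57 grafts at day 14 (-0.81 ± 0.11).

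The centromere and kinetochore genes held the largest change of the 45 in each of the 3 comparisons. Ndc80 (chr17:71496100-71526857), the microtubule-binding arm of the kinetochore, had 3.35, 3.90 and 5.62 CPM in C57 ear and 34.1, 40.2 and 42.8 CPM in E7 ear. At day 14 Ndc80 had 14.0, 11.8 and 9.19 CPM in C57 and 27.3, 34.7 and 27.4 CPM in E7 grafts, and at day 28 4.30, 4.20 and 5.17 and 17.9, 20.9 and 20.2 CPM. C57 grafts of day 28 were back in the range of C57 ear. The changes were 3.17 ± 0.17, 1.37 ± 0.17 and 2.13 ± 0.19. Cenpe (chr3:135212537-135273611), the kinesin that brings chromosomes to the spindle equator, had 9.08, 8.03 and 12.2 CPM in C57 ear and 82.8, 92.2 and 97.8 CPM in E7 ear. In grafts it had 38.9, 36.2 and 33.9 and 84.4, 89.0 and 86.4 CPM at day 14 (C57, E7), and 12.7, 22.0 and 18.8 and 54.3, 54.8 and 57.1 CPM at day 28. Its ear change of 3.21 ± 0.13 was the highest of the 45, with 1.27 ± 0.15 and 1.67 ± 0.16 in grafts. Cenpf, a large protein of the outer kinetochore, had 15.1, 14.8 and 24.1 CPM in C57 ear and 101, 113 and 109 CPM in E7 ear. Cenpf grafts had 51.6, 48.4 and 42.2 CPM (C57) and 81.6, 85.3 and 76.9 CPM (E7) at day 14, and 22.8, 30.2 and 30.0 and 55.9, 61.9 and 56.2 CPM at day 28. Cenpf changed by 2.57 ± 0.18, 0.79 ± 0.12 and 1.09 ± 0.12. All 7 members rose each time, with Cenpa, the centromeric histone, and Nuf2, Spc24 and Spc25, the partners of Ndc80. Within the Ndc80 complex the day 28 changes were 2.13 ± 0.19 for Ndc80, 1.52 ± 0.12 for Nuf2, 1.59 ± 0.18 for Spc24 and 1.84 ± 0.20 for Spc25.

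All 5 spindle motors and microtubule binders rose each time, in ear from 2.73 ± 0.21 for Kif4 to 3.00 ± 0.22 for Kif2c, the microtubule depolymerase. Kif11, the motor that pushes the spindle poles apart, had 13.7, 13.3 and 20.4 CPM in C57 ear and 113, 120.2 and 120.2 CPM in E7 ear. Its C57 grafts had 55.1, 53.6 and 46.1 CPM at day 14 and 20.7, 23.8 and 22.2 CPM at day 28, and its E7 grafts 101, 106 and 102 and 69.3, 77.1 and 75.7 CPM. The changes were 2.89 ± 0.15, 1.01 ± 0.13 and 1.76 ± 0.13. Tpx2, which activates Aurora A on the spindle, had 12.0, 11.0 and 18.4 CPM in C57 ear and 90.2, 101 and 94.5 CPM in E7 ear. Tpx2 had 42.9, 43.4 and 40.7 and 15.3, 19.4 and 18.1 CPM in C57 grafts of days 14 and 28, and 85.8, 89.0 and 76.2 and 61.6, 64.6 and 55.8 CPM in E7 grafts. It changed by 2.78 ± 0.17, 1.00 ± 0.12 and 1.81 ± 0.13. Kif4, a motor of chromosome arms and midzone, had 10.4, 11.0 and 18.0 CPM in C57 ear and 79.2, 84.5 and 99.4 CPM in E7 ear. In grafts Kif4 had 25.5, 18.4 and 25.4 and 50.6, 59.1 and 57.5 CPM at day 14 (C57, E7), and 15.1, 17.1 and 16.2 and 35.4, 40.5 and 43.4 CPM at day 28. The change at day 14, 1.28 ± 0.19, was second to that of Ndc80 among the 45, and at day 28 it was 1.32 ± 0.20. Nusap1, which bundles spindle microtubules, had 2.86 ± 0.13, 1.21 ± 0.16 and 1.59 ± 0.17.

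Central spindle and cytokinesis genes rose in all 3 comparisons, 7 of 7 each time, with medians of 2.28, 1.02 and 1.32. Prc1, which crosslinks midzone microtubules, had 21.9, 21.3 and 29.3 CPM in C57 ear and 119, 116 and 119.5 CPM in E7 ear. Prc1 had 49.8, 46.6 and 43.9 CPM (C57) and 95.7, 104 and 84.9 CPM (E7) in grafts of day 14, and 31.3, 32.3 and 27.5 and 69.5, 80.6 and 74.6 CPM at day 28. The changes were 2.28 ± 0.11, 1.03 ± 0.14 and 1.32 ± 0.14. Anillin, encoded by Anln, scaffolds the contractile ring. Anln had 32.3, 33.9 and 49.4 CPM in C57 ear and 163, 183 and 181 CPM in E7 ear. In grafts it had 60.2, 51.4 and 51.9 and 115, 102 and 112 CPM at day 14 (C57, E7), and 37.9, 43.1 and 46.8 and 73.4, 91.8 and 96.7 CPM at day 28. Anln changed by 2.18 ± 0.16, 1.02 ± 0.16 and 1.06 ± 0.16, and its E7 grafts were well below E7 ear. Kif23, the kinesin of centralspindlin, had 20.2, 19.1 and 28.3 CPM in C57 ear and 67.3, 70.2 and 65.5 CPM in E7 ear. Kif23 had 41.7, 33.7 and 34.5 and 50.6, 48.0 and 45.4 CPM at day 14 (C57, E7), and 22.2, 25.9 and 26.4 and 33.6, 42.7 and 40.8 CPM at day 28. Its changes, 1.58 ± 0.13, 0.40 ± 0.11 and 0.67 ± 0.12, were below those of Racgap1, the other centralspindlin subunit (2.72 ± 0.21, 0.99 ± 0.14 and 1.51 ± 0.14). The difference between these 2 genes was not tested. Ect2, the exchange factor that Racgap1 recruits, and the kinesins Kif20a and Kif20b completed the role.

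Both transcription factors of the group rose in all 3 comparisons, with medians of 2.27, 0.62 and 1.22. Foxm1, a forkhead factor, had 14.1, 16.5 and 22.1 CPM in C57 ear and 76.9, 85.6 and 81.7 CPM in E7 ear. Its grafts had 43.6, 46.0 and 36.9 CPM (C57) and 66.5, 60.7 and 64.1 CPM (E7) at day 14, and 18.4, 23.9 and 23.2 and 46.3, 55.3 and 47.1 CPM at day 28. Mybl2, which encodes B-Myb and is itself an E2F target, had 4.58, 3.45 and 4.81 CPM in C57 ear and 23.6, 21.3 and 20.6 CPM in E7 ear. For both genes no E7 library reached down to C57 of the same tissue and day. Mybl2 had 8.60, 10.1 and 8.12 and 12.4, 14.4 and 14.2 CPM at day 14 (C57, E7), and 4.39, 4.76 and 4.33 and 11.6, 9.16 and 10.6 CPM at day 28. Log2 fold changes were 2.20 ± 0.14, 0.61 ± 0.13 and 1.21 ± 0.13 for Foxm1 and 2.35 ± 0.14, 0.63 ± 0.14 and 1.24 ± 0.15 for Mybl2.

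**Figure D3:**
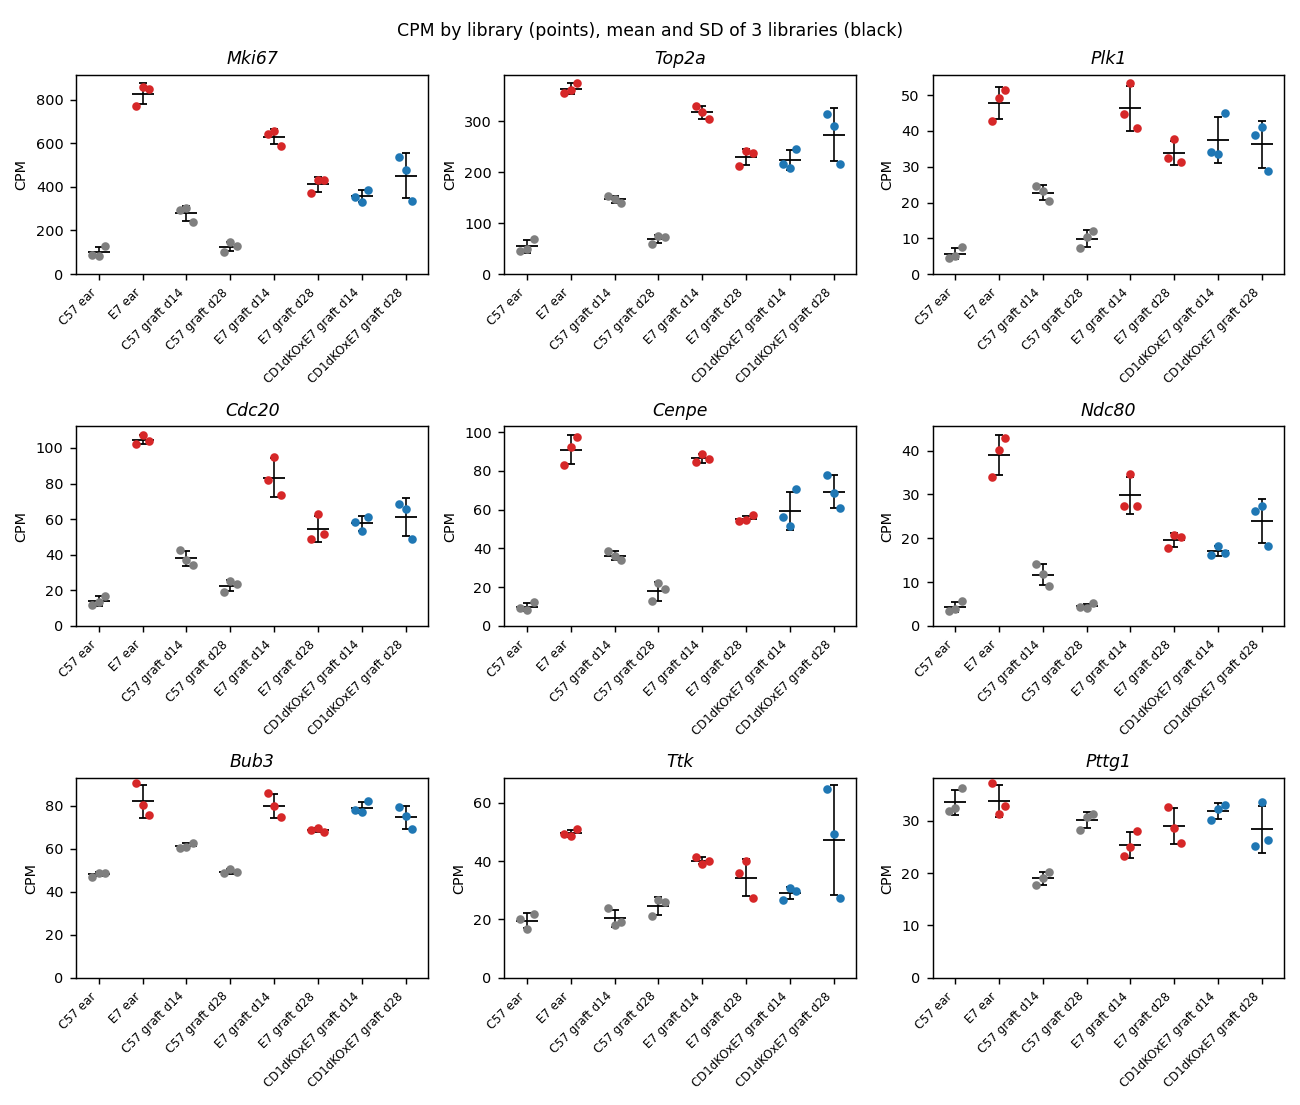
CPM of 9 members in the 8 groups; points are the 3 libraries of a group, and the black mark and bars are their mean and SD. Mki67, Top2a, Plk1, Cdc20, Cenpe and Ndc80 are lowest in C57 ear and highest in E7 ear, Bub3 spans a narrower range, Ttk spreads widely in the group labelled CD1dKOxE7 at day 28 (27.5 to 64.8 CPM), and Pttg1 has no gap between C57 and E7 ear.

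Other genes of the machinery were read from lists. Of 32 further kinetochore genes, all 32 rose in E7 ear, 30 at day 14 and 29 at day 28, with medians of 1.88, 0.91 and 1.28. The extremes in ear were Sgo1, the protector of centromeric cohesin (3.11), and Cenpc1 (0.28). A list of 35 further genes mixed those of spindle and cytokinesis with regulators of mitosis such as Cdk1, Ccnb1 and Wee1. Of these 34, 34 and 35 rose, with medians of 2.43, 0.90 and 1.41, and Hmmr was the highest in ear at 3.30. The 15 genes of replication licensing all rose each time, with medians of 2.27, 1.41 and 1.81. These lists were chosen with earlier results of these data known, and their counts stand beside the same backgrounds of 32.6%, 15.8% and 20.7%.

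Lists of 3 other complexes gave other counts. Of 13 core subunits and co-activators of the anaphase-promoting complex, 4 rose and 2 fell in ear, 1 rose and 2 fell at day 14, and 2 rose and 2 fell at day 28, with medians of 0.08, 0.06 and 0.005. Fzr1, the Cdh1 co-activator, was the highest in ear at 0.61. Of 14 cohesin and condensin II genes, 13 rose and 1 (Pds5b) fell in ear, and 10 and 12 rose at days 14 and 28, with medians of 0.81, 0.47 and 0.45. Cdca5, sororin, led that list in ear (2.56) and at day 28 (2.32). Of the 5 MuvB core genes, 3, 3 and 4 rose, with Lin9 the highest each time (1.64, 0.95 and 1.35).

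Markers of the cells of skin also differed between E7 and C57. In ear all 6 suprabasal keratinocyte markers rose, with a summed level of 15200 to 18190 CPM in C57 and 39740 to 42470 CPM in E7. The 7 basal keratinocyte markers summed to 13790 to 15070 and 13160 to 15920 CPM, 2 overlapping ranges, with 2 genes that rose and 3 that fell. All 6 fibroblast markers fell, with sums of 7993 to 8874 CPM in C57 and 2251 to 4398 CPM in E7 ear. All 6 endothelial markers fell (183 to 198 CPM in C57, 77.7 to 99.97 CPM in E7), as did all 6 skeletal muscle and all 5 adipocyte markers. The 4 neutrophil markers that could be tested, of 6, rose, and the list summed to 6.83 to 16.0 CPM in C57 and 112 to 358 CPM in E7 ear. The 11 hair matrix and shaft markers summed to 16.5 to 23.8 CPM in C57 and 41.2 to 77.6 CPM in E7 ear, with no overlap. None of these markers was at 0 in either ear group. In grafts the fibroblast list was again lower in E7, with 4 of 6 genes that fell at day 14 and 5 at day 28 and sums of 30470 to 45190 and 16090 to 25490 CPM at day 14 and 19690 to 36970 and 12670 to 18690 CPM at day 28 (C57, E7). All 6 macrophage markers fell at day 14 (636 to 1091 CPM in C57, 273 to 464 CPM in E7), and 3 of 6 suprabasal markers rose at either day. T cell sums were higher in E7, without overlap, at day 14 (46.55 to 53.7 and 61.4 to 76.2 CPM). So they were at day 28 (48.9 to 67.0 and 67.4 to 71.0 CPM), as were neutrophil sums (22.8 to 45.4 and 48.4 to 72.9 CPM). Basal keratinocyte sums at day 14 were 10050 to 13780 CPM in C57 and 13640 to 16040 CPM in E7 grafts, which overlapped. At day 28 they were 10490 to 11480 CPM in C57 and 13220 to 16580 CPM in E7 grafts, with no overlap. The part of these cell types in the rise of the mitosis genes was not tested.

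For most members the E7 difference was larger in ear than in grafts, and this was tested as a difference of differences in 1 fit of all 24 libraries. For 43 members the log2 fold change of E7 over C57 was lower at day 14 than in ear, against 8.61% of all 16612 genes, with a median difference of -1.61. At day 28 it was lower than in ear for 39 members, against 5.13%, with a median of -1.02. Kif2c had the lowest value at day 14 (-2.17) and Cdc20 at day 28 (-1.62). The E7 transgene was at 57.1, 54.6 and 42.1 CPM in E7 ear, 33.8, 40.6 and 38.6 CPM in E7 grafts at day 14 and 25.5, 34.1 and 27.1 CPM at day 28. Every graft was below every ear library, the days overlapped, and the part of the transgene level in the result was not tested. Pttg1 and Ttk passed in neither, and Bub1, Bub3, Mad2l1 and Spc24 did not pass at day 28. Cdc25b passed at day 14 (-0.45 ± 0.13) but lost the call without any 1 of 9 libraries, which were C57 ear replicates 1 and 2, E7 ear replicates 1 and 2, all 3 C57 grafts and E7 graft replicates 1 and 3, and also with RLE or upper quartile scaling.

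Both ends of the comparison moved. C57 grafts at day 14 were above C57 ear for 42 members that rose, against 30.6% of all genes, with a median of 1.27 and a top of 1.98 ± 0.20 for Plk1. Pttg1 fell, as did 22.0% of all genes, and Cdc25b and Ttk did not pass. At day 28, 15 members were still above C57 ear, against 21.3% of all genes, with a median of 0.33. That count ran from 7 without C57 graft replicate 2 of day 28 to 30 without C57 ear replicate 3, and it was 9 without ear replicate 1, 8 without ear replicate 2 and 9 without graft replicate 3. E7 grafts at day 14 were below E7 ear for 17 members, against 21.3% of all genes that fell, with a median of -0.31. There the count was 9 without E7 ear replicate 2, 10 without ear replicate 3, and 10 without graft replicate 1 or 3. E7 grafts at day 28 were below E7 ear for 41 members, against 24.2%, with a median of -0.67. Markers of other cells moved between ear and graft too. From C57 ear to C57 grafts at day 14, 5 of 6 fibroblast markers rose and 1 fell (7993 to 8874 CPM in ear, 30470 to 45190 CPM in grafts), and all 6 endothelial, 4 of 6 macrophage and all 4 tested neutrophil markers rose. All 11 hair matrix and shaft markers rose, 5 of 7 basal keratinocyte markers fell and 1 rose (13790 to 15070 and 10050 to 13780 CPM), and all 6 skeletal muscle markers fell (2798 to 5202 and 219 to 830.1 CPM). Suprabasal keratinocyte sums were 15200 to 18190 CPM in C57 ear and 32350 to 35920 CPM in C57 grafts at day 14, with no overlap. From E7 ear to E7 grafts at day 14, 5 of 6 fibroblast (2251 to 4398 and 16090 to 25490 CPM), all 6 endothelial and all 11 hair markers rose, and 3 of 6 skeletal muscle markers fell. Suprabasal keratinocyte sums were 39740 to 42470 CPM in E7 ear and 46080 to 89400 CPM in these grafts. The part of these cells in the levels of the mitosis genes was not tested. These comparisons use again the libraries of the comparisons between E7 and C57, and those of ear and graft were on different flow cells.

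In C57 grafts the mitosis genes were lower at day 28 than at day 14. Of the 45 members 40 fell, against 14.2% of all genes, with a median of -0.92 (-0.03 for all genes) and Ndc80 lowest at -1.35 ± 0.20. Pttg1 rose, as did 8.4% of all genes, and Cdc25b, Kif4, Ttk and Anln did not pass. Mki67 fell by 1.13, Top2a by 1.08, Plk1 by 1.21 and Tpx2 by 1.26 on the log2 scale. For 42 members all day 28 libraries were below all day 14 libraries, which held for 26.0% of all genes, and for 2 they were above, as for 17.1%. The C57 and E7 graft libraries here are those compared between donors above. The hair matrix and shaft markers fell as well, 11 of 11, from a summed 8503 to 15250 CPM at day 14 to 959.5 to 2082 CPM at day 28. The same 11 genes summed to 16.5 to 23.8 CPM in C57 ear. The hair matrix is a site of fast division in growing follicles. Of the suprabasal markers 3 of 6 fell (32350 to 35920 CPM at day 14, 20420 to 23820 CPM at day 28), and all 6 skeletal muscle markers rose (219 to 830.1 and 1437 to 3414 CPM). No fibroblast, endothelial, macrophage, T cell or neutrophil marker passed. The part of these cells in the level of the mitosis genes was not tested.

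In E7 grafts 19 members fell from day 14 to day 28, against 9.48% of all genes, with a median of -0.37, and Cenpe was lowest at -0.63 ± 0.15. For 39 members all day 28 libraries were below all day 14 libraries, as for 21.1% of all genes. Mki67 (-0.59 ± 0.16), Top2a (-0.44 ± 0.12), Cdc20 (-0.60 ± 0.14), Kif11 and Tpx2 were among the 19 that fell, while Plk1 (-0.44 ± 0.17, adjusted p = 0.0905) was not. The count rested on single libraries. It was 9 without day 14 replicate 1, 4 without day 14 replicate 2, 3 without day 28 replicate 1 and 12 without day 28 replicate 3. All 11 hair matrix and shaft markers fell, from sums of 2891 to 11040 CPM at day 14 to 421 to 1070 CPM at day 28. Of the suprabasal markers 3 of 6 fell (46080 to 89400 and 35170 to 37170 CPM), and 1 of 6 macrophage markers rose, with sums that did not overlap (273 to 464 and 520.3 to 722 CPM). Their part in the fall was not tested.

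Whether the E7 difference itself changed between the days was tested by the interaction. Birc5 alone of the 45 passed, with a difference of 0.81 ± 0.13 in log2 (adjusted p = 0.0158), where 0.148% of all genes passed upward. Birc5 had 26.8, 27.5 and 26.7 CPM in C57 and 44.8, 51.0 and 40.8 CPM in E7 grafts at day 14. At day 28, where the values are given above, the 2 groups lay farther apart. The call was lost without C57 day 28 replicate 1 or replicate 3. The median difference of the 45 was 0.50, where that of all genes was 0.045. Of the members 42 were above 0, as were 57.6% of all genes. An unadjusted p below 0.05 was found for 28 members, a share that was not counted over all genes. Spc24 had the largest difference, 0.84, and did not pass. DESeq2 called 4 members, with Kif11, Tpx2 and Nuf2 added.

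Grafts labelled CD1dKOxE7 had less mitosis transcript than E7 grafts at day 14. Of the 45 members 27 fell, none rose and 18 did not pass, against 14.8% of all genes that fell. The median log2 fold change was -0.46 (-0.03 for all genes), from -0.83 ± 0.16 for Mki67 to 0.31 ± 0.12 for Pttg1. The E7 transgene was lower in the same libraries, at 20.4, 17.6 and 23.5 CPM against 33.8, 40.6 and 38.6 CPM in E7 grafts, with no overlap, and its part in the result was not tested. For 32 members all 3 libraries labelled CD1dKOxE7 were below all 3 E7 libraries, as for 21.1% of all genes, 1 was above, as for 21.4%, and 12 overlapped. These comparisons share the E7 libraries with the comparison of E7 and C57. Leaving out 1 library gave 21 to 30 calls, the lowest without replicate 2 of the group labelled CD1dKOxE7.

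**Figure D4:**
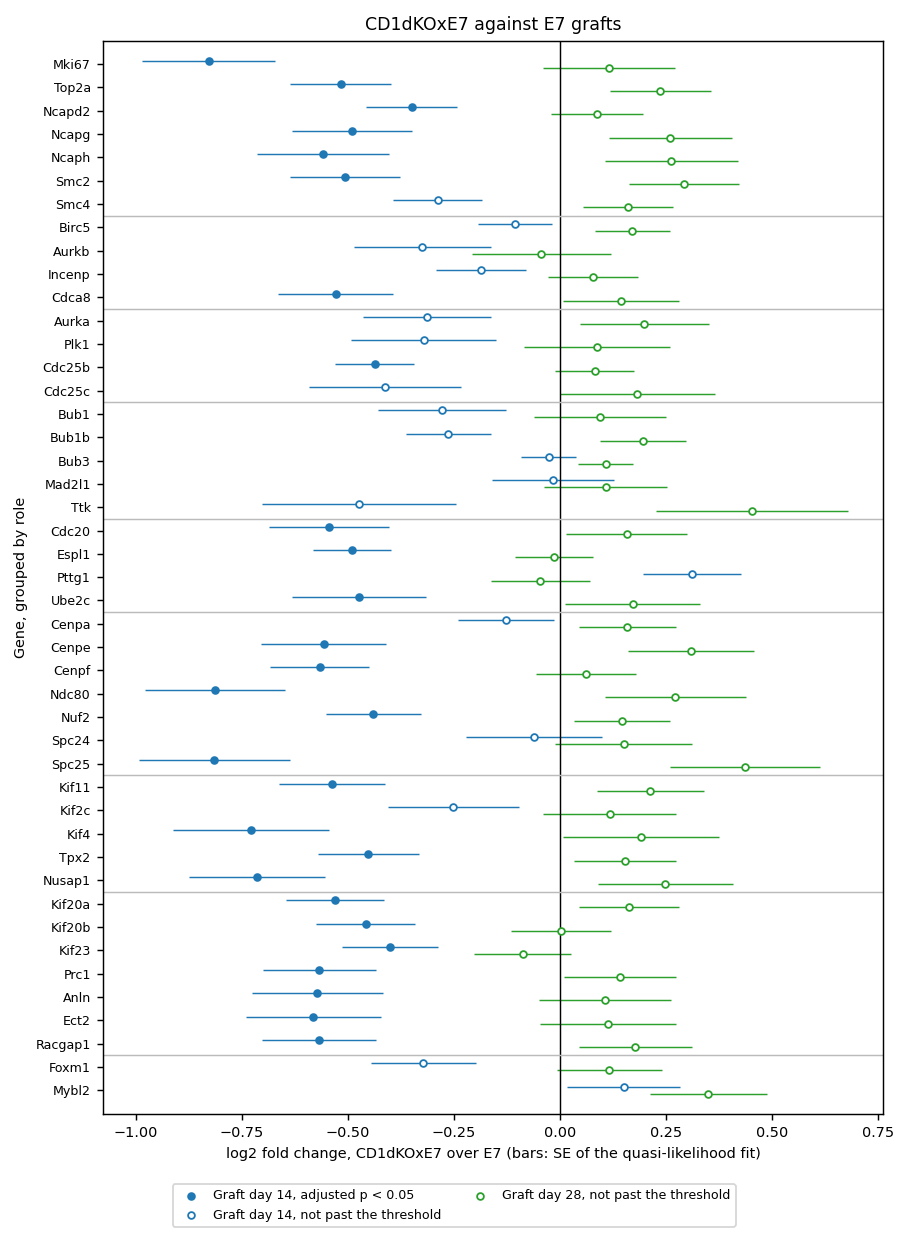
Log2 fold change of grafts labelled CD1dKOxE7 over E7 grafts for the 45 genes at day 14 and day 28; bars are the SE of the fit, filled points passed the test and open points did not. Day 14 points lie left of 0 for 43 of 45 genes, and no day 28 point passed.

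Differences between roles were not tested. All 7 central spindle and cytokinesis genes fell, between -0.58 ± 0.16 for Ect2 and -0.40 ± 0.11 for Kif23. Prc1 had 57.8, 59.8 and 76.5 CPM in the libraries labelled CD1dKOxE7, Anln 76.8, 60.2 and 86.6 CPM and Kif23 38.4, 34.2 and 37.2 CPM. All 3 genes lay below every E7 library of that day given above. Of the chromosome structure genes 6 of 7 fell, with Smc4 not past the test. Mki67 had 355, 331 and 386 CPM, Top2a 217, 208 and 245 CPM and Ncaph 29.6, 28.9 and 36.4 CPM, and no library reached the E7 grafts of that day. Top2a fell by 0.52 and Ncaph by 0.56 on the log2 scale.

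Kinetochore genes fell in 5 of 7 cases. Spc25 was lowest at -0.82 ± 0.18, with 17.8, 18.8 and 17.6 CPM against 31.7, 33.5 and 29.6 CPM in E7. Ndc80 had 16.1, 18.3 and 16.8 CPM, Cenpe 56.3, 51.6 and 70.5 CPM and Cenpf 56.6, 49.2 and 60.2 CPM, with changes of -0.81 ± 0.16, -0.56 ± 0.15 and -0.57 ± 0.12. All 3 genes were below every E7 library of that day. Of the spindle motors and binders 4 of 5 fell. Kif11 had 74.8, 64.8 and 75.1 CPM, Tpx2 62.1, 59.8 and 63.0 CPM and Kif4 33.0, 32.8 and 36.0 CPM, and their changes were -0.54 ± 0.13, -0.45 ± 0.12 and -0.73 ± 0.18. Kif2c was the motor that did not pass (-0.25 ± 0.16).

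No spindle checkpoint gene passed. Bub3 had 78.2, 77.3 and 82.2 CPM against 85.8, 79.9 and 74.7 CPM in E7 (-0.03 ± 0.06), and Bub1b 56.1, 54.1 and 66.8 CPM (-0.26 ± 0.10, adjusted p = 0.0602). Their ranges overlapped those of E7 grafts. Ttk had 26.8, 30.8 and 29.7 CPM, below all 3 E7 libraries, with -0.47 ± 0.23 and an adjusted p of 0.137. Of the passenger complex Cdca8 alone fell (-0.53 ± 0.14), with 45.6, 45.5 and 47.9 CPM, while Incenp had 69.1, 67.2 and 79.6 CPM (-0.19 ± 0.11). Of the entry genes Cdc25b alone fell (-0.44 ± 0.09), with 83.2, 83.5 and 105 CPM, and Plk1 had 34.2, 33.5 and 44.9 CPM (-0.32 ± 0.17). The other genes of both roles also had log2 fold changes below 0, from -0.11 to -0.41, without passing. Cdc20 (58.5, 53.3 and 61.2 CPM), Espl1 (48.4, 47.2 and 45.9 CPM) and Ube2c fell, by 0.54 and 0.49 on the log2 scale for Cdc20 and Espl1. Pttg1 had 30.1, 32.2 and 33.1 CPM, above all 3 E7 libraries, with an adjusted p of 0.0554. Neither transcription factor passed. Foxm1 had 49.7, 48.1 and 56.5 CPM (-0.32 ± 0.12, adjusted p = 0.0612) and Mybl2 15.9, 17.0 and 12.8 CPM (0.15 ± 0.13).

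At day 28 none of the 45 members passed between grafts labelled CD1dKOxE7 and E7 grafts. By the edgeR test 34 of all 16189 genes (0.21%) passed, and the smallest adjusted p of a member was 0.304, for Mybl2. Of the members 3 had an unadjusted p below 0.05, a share that was not counted over all genes. DESeq2 called no member either. The log2 fold changes ran from -0.09 ± 0.12 for Kif23 to 0.45 ± 0.23 for Ttk, with a median of 0.15. Mki67 had 537, 479 and 335 CPM (0.12 ± 0.16), Top2a 315, 291 and 216 CPM (0.24 ± 0.12) and Ndc80 26.2, 27.3 and 18.1 CPM (0.27 ± 0.17). Replicate 3 was the lowest of the 3 libraries for these genes and lay in or near the range of the E7 grafts, while replicates 1 and 2 were above it. Ttk had 64.8, 49.4 and 27.5 CPM and Spc25 37.7, 36.6 and 20.3 CPM. Without replicate 3, 4 members passed and were higher than in E7 grafts, Top2a, Smc2, Spc25 and Ttk. Over the fits that left out 1 library, 4 to 304 of all genes were called, in either direction. For the whole group, the libraries overlapped those of E7 grafts for 41 members and 4 were above E7 in all libraries, where 8.56% of all genes were.

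The other members given library by library had the following day 28 values in the group labelled CD1dKOxE7. Cenpe had 77.8, 68.8 and 60.9 CPM, Cenpf 67.1, 63.1 and 52.9 CPM, Kif11 105, 88.2 and 66.5 CPM, Tpx2 72.6, 78.1 and 53.1 CPM and Kif4 57.9, 49.6 and 29.2 CPM. Prc1 had 89.7, 94.3 and 65.8 CPM, Anln 114, 96.7 and 73.5 CPM, Kif23 42.4, 34.4 and 34.2 CPM and Ncaph 52.6, 49.8 and 32.3 CPM. Replicate 3 was the lowest library for all 9 genes, by little for Kif23 and, in ratio, by the most for Kif4. Cdc20 had 68.6, 66.0 and 49.0 CPM, Espl1 52.8, 54.9 and 47.5 CPM, Plk1 38.8, 41.1 and 28.8 CPM and Cdc25b 118, 114 and 99.2 CPM. Incenp had 72.4, 73.4 and 65.1 CPM, Cdca8 53.1, 59.6 and 40.2 CPM, Bub3 79.5, 75.4 and 69.0 CPM and Bub1b 61.1, 57.3 and 52.3 CPM. Replicate 3 was the lowest for all 8. Foxm1 had 62.1, 54.3 and 45.9 CPM, Mybl2 13.1, 14.9 and 12.4 CPM, Pttg1 25.1, 33.6 and 26.3 CPM and Birc5 41.7, 44.3 and 44.0 CPM, and for Pttg1 and Birc5 replicate 3 was not the lowest.

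Between the days, 7 members rose in the group labelled CD1dKOxE7, against 10.8% of all genes, and none fell. They were Spc25 (0.82 ± 0.18), Ttk (0.72 ± 0.23), Ncaph (0.53 ± 0.16), Ndc80 (0.50 ± 0.17), Prc1, Nusap1 and Cdc25b, and the median of the 45 was 0.15. The libraries of the days did not overlap for 2 members, both higher at day 28, against 13.7% of all genes. In the same comparison 10 of 11 hair matrix and shaft markers fell (2719 to 8920 CPM at day 14, 447 to 1305 CPM at day 28), all 6 suprabasal markers rose (13210 to 19120 and 21850 to 45320 CPM), and all 8 T cell, 5 of 6 endothelial and 3 of 4 tested neutrophil markers fell. The E7 transgene went from 20.4, 17.6 and 23.5 CPM to 44.1, 44.4 and 18.8 CPM, and the part of these values in the result was not tested. Without day 28 replicate 3 the count was 18. It was 1 without day 14 replicate 1 or without day 28 replicate 1 or 2, and 2 without day 14 replicate 2, and no member passed when these 6 libraries were fitted alone. The number of all genes called, in either direction, moved as well. It ran from 2022 to 5142 when 1 library was left out, against 3660 with all libraries. A test of the difference between the days of the CD1dKOxE7 and E7 difference, added after the values were seen, called 22 members, all upward, against 6.54% of all genes, with a median of 0.60 and Spc25 highest at 1.25 ± 0.25. Its count ran from 9 without day 28 replicate 1 of the group labelled CD1dKOxE7 to 31 without day 28 replicate 3 of that group. It was 10 without day 28 replicate 2, 13 without day 14 replicate 2 of that group, 12 without E7 day 14 replicate 2 and 11 without E7 day 28 replicate 1. All genes called in this test, in either direction, ran from 1099 to 3956 when 1 library was left out, against 2080.

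Other cells differed at the same time. At day 14 all 6 suprabasal keratinocyte markers were lower in the group labelled CD1dKOxE7, with 13210 to 19120 CPM in sum against 46080 to 89400 CPM in E7 grafts. All 8 T cell markers rose, with sums of 346 to 423 against 61.4 to 76.2 CPM. Macrophage markers rose in 5 of 6 cases (777 to 908 against 273 to 464 CPM) and neutrophil markers in 3 of the 4 tested (1214 to 2377 against 68.5 to 293 CPM), with Ly6g at 0 in the E7 group. The basal keratinocyte list, in which 1 gene rose and 1 fell, had 13860 to 21270 against 13640 to 16040 CPM. At day 28 no T cell, macrophage, neutrophil or suprabasal marker passed with all libraries in the fit, and Ly6g was at 0 in both groups. The markers were not tested without replicate 3 of the group labelled CD1dKOxE7. Replicate 3 of the group labelled CD1dKOxE7 then had the most T cell marker (180.5 CPM against 90.8 and 75.0 CPM), the most macrophage marker (1312 against 494 and 595 CPM) and the least suprabasal marker (21850 against 41180 and 45320 CPM) of its group. The part of these cells in the levels of the mitosis genes was not tested.

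**Figure D5:**
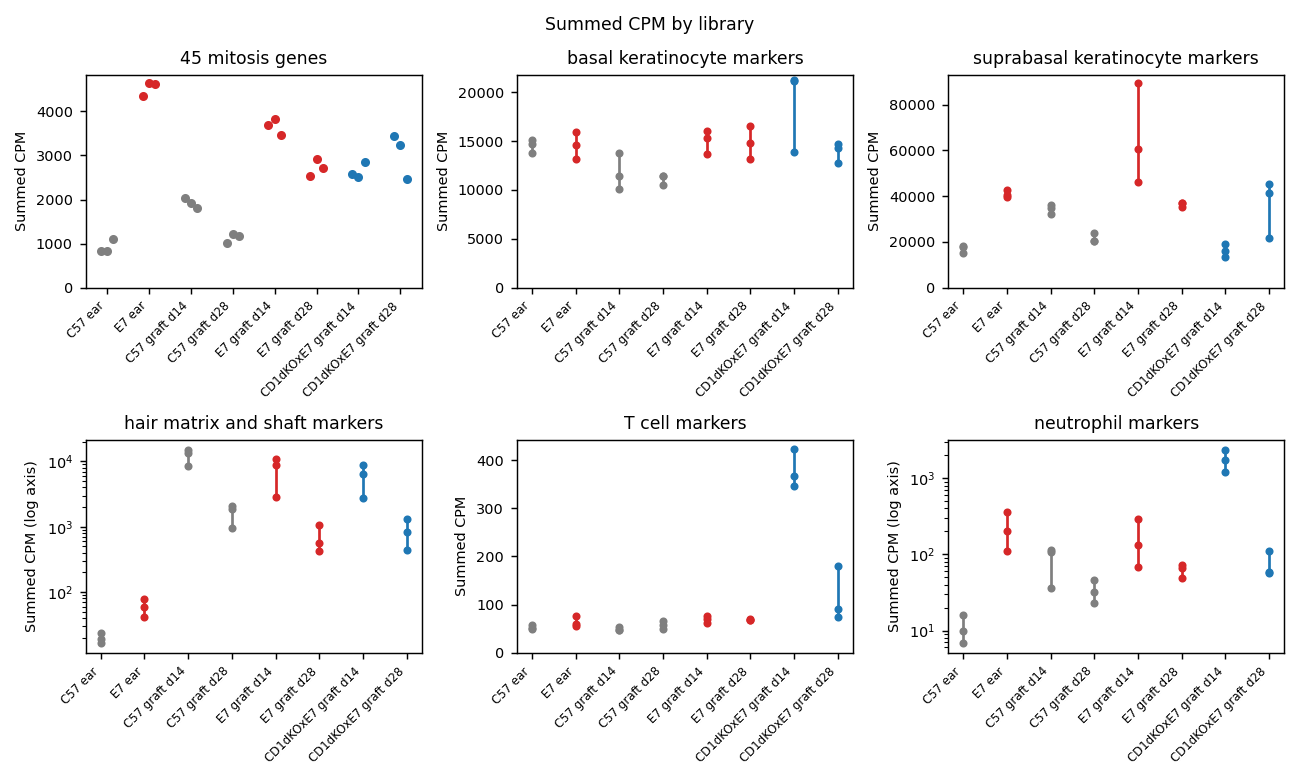
Summed CPM of the 45 mitosis genes and of 5 marker lists in the 8 groups, with 1 point per library and log axes for hair matrix and shaft and for neutrophil markers. The mitosis sum is highest in E7 ear and lowest in C57 ear. Basal keratinocyte sums of C57 and E7 overlap in ear and in day 14 grafts and do not in day 28 grafts. T cell and neutrophil sums are highest in the group labelled CD1dKOxE7 at day 14.

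The related lists were read in the grafts labelled CD1dKOxE7 at day 14 too. Of 32 further kinetochore genes 14 fell, of the 35 further genes of spindle, cytokinesis and mitotic regulation 20 fell and 1 (Pimreg) rose, and of 15 licensing genes 12 fell. The medians were -0.38, -0.42 and -0.51. At day 28 none of the genes of these 3 lists passed by the edgeR test. These lists were not read without replicate 3 of the day 28 group labelled CD1dKOxE7.

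Some members share exon bases with a gene on the other strand in GENCODE M21. As the strand of the reads is not given in the sources used here, their counts may hold reads of the partner. The share of exon bases is 29.3% for Kif20a with Cdc23, 22.8% for Ube2c with the muscle troponin gene Tnnc2, 15.1% for Kif4 with Pdzd11, 13.4% for Ncapg with Lcorl, 12.7% for Cdc25c with Gm3550 and 11.1% for Prc1 with Rccd1. It is at most 7.1% for Plk1, Cdca8, Nusap1, Cdc20 and Cdc25b.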

How the data were processed

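The authors deposited 1 table of raw counts per gene for each of 24 libraries of total RNA (TruSeq RNA v2, per the labels' protocols). Per the submitters' processing notes, bcl2fastq 1.8.4, FastQC, Trimmomatic and mm10 were used. The aligner, the counter, the annotation and the strand are not given in the sources used here. Counts were tested with the edgeR 4.0.16 quasi-likelihood F test (robust, TMM scaling, filterByExpr with a minimum count of 10) and Benjamini-Hochberg adjustment over all genes. The ear fit held 15720 genes of 6 libraries, the graft fit 16189 genes of 18, and comparisons of ear with graft 16612 genes of all 24. CPM come from the fit of all 24 libraries, an SE is the log2 fold change over the square root of F, and the heatmap uses a pseudocount of 0.5 CPM. Rows without a RefSeq match took 0.826 to 1.56% of counts and were kept.

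The members and all lists were chosen with earlier results of these data known. Values in every library are given for Mki67, for the 2 members of each role with the highest mean CPM, and for the 2 highest and 2 lowest log2 fold changes of E7 over C57 in ear and at each day. Ttk at day 28, Birc5 and Spc25 were singled out after their values were seen. Alternatives were DESeq2 1.42.0, other scalings, filters and fits, a replicate block, and each library left out in turn.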

Additional observations from a re-analysis of the deposited data

Results flagged for a closer look

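The log2 fold change of E7 over C57 differed from its ear value for 43 of the 45 mitosis genes in day 14 grafts and for 39 in day 28 grafts, by the edgeR test of the difference of differences, and it was lower in grafts for all of them. Birc5, which encodes survivin, was the one member whose E7 difference passed the test between the days, by 0.81 on the log2 scale. That call was lost without C57 day 28 replicate 1 or replicate 3. Spc24 had a larger difference of 0.84 that did not pass, and the median of the 45 was 0.50 (0.045 for all genes). For 22 members the difference between grafts labelled CD1dKOxE7 and E7 grafts was higher at day 28 than at day 14, in a test chosen after the values were seen. The first 2 counts set libraries of different flow cells against each other, and the last sets libraries of different lanes against each other.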

How the results depend on the processing

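Counts of members called kept within 1.5 times of the values above under every alternative run for E7 against C57 in ear and at both days, for CD1dKOxE7 against E7 at day 14 and for C57 grafts between days. No called member changed sign under any alternative. Other counts moved, and the cause was not tested. In fits of the compared libraries alone, 0 members and 1308 genes differed between days in grafts labelled CD1dKOxE7, 26 members differed between E7 grafts of day 14 and E7 ear, 13 members and 1314 genes passed in the added test of the CD1dKOxE7 difference between days, and 2190 genes passed for the E7 difference at day 28 minus ear. For the E7 difference between days, 3 members and 55 genes passed with only these groups, 4 members and 155 genes with DESeq2, and 62 genes with all 24 libraries. For CD1dKOxE7 against E7 at day 28, 34 genes became 241 with DESeq2, 125 with all 24 libraries and 3 with only these groups.

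Leaving out 1 library gave 0 to 4 members and 4 to 304 genes for CD1dKOxE7 against E7 at day 28, and 3043 to 4488 genes for E7 against C57 at day 14. Between days it gave 3 to 19 members and 1211 to 2753 genes in E7 grafts, and 1 to 18 members and 2022 to 5142 genes in grafts labelled CD1dKOxE7. The E7 difference between days had 0 to 1 members and 12 to 72 genes, and the added test 9 to 31 members and 1099 to 3956 genes. Against ear, C57 grafts of day 28 had 7 to 30 members and 5213 to 5836 genes, and E7 grafts of day 14 had 9 to 18 members and 6140 to 6357 genes. The E7 difference against ear had 1394 to 1882 genes at day 14 and 743 to 1097 at day 28.

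Of 45 same-numbered pairs of graft libraries 10 had a correlation of deviations above 0.1 (median 0.0265). All 3 pairs of 2 groups passed 0.1 for C57 and CD1dKOxE7 grafts of day 14 (0.1174, 0.1129 and 0.1925), which are not compared above, and the labels say nothing of pairing, so the numbers were not taken to pair the samples. With a replicate block, 65 genes passed for CD1dKOxE7 against E7 at day 28 in place of 34, and members called stayed within 1.5 times in every graft comparison. Ears share no numbers.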
